A study of Owenia fusiformis with 26 samples.

Results

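The 150 genes described here are genes of the annelid *Owenia fusiformis* that were low in the egg and throughout cleavage and reached their highest level at the elongation stage, 13 h post fertilisation (hpf). They were chosen from the expression values themselves. Transcripts were summed to genes, both libraries of a stage were averaged, and a gene was kept if the highest of its 12 stage means was that at elongation, if this mean was at least 200, and if all means from the oocyte to the coeloblastula were under 20. Of the 26966 genes in the table, 160 met these limits. One of them, a gene with a BlastX hit to noggin, was left out by the rule, and of the remaining 159 the 150 with the highest ratio of the elongation mean to the next highest stage mean plus 1 were taken. These values are therefore a description of how the genes were chosen, and nothing is read from a test on them.

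*O. fusiformis* is a tube-dwelling marine annelid whose embryo divides by equal spiral cleavage and develops into a planktonic mitraria larva. Whole embryos or larvae of 12 stages were sequenced, with 2 RNA-seq libraries per stage: oocyte, zygote, 2-cell, 4-cell, 8-cell, 3 hpf, 4 hpf, coeloblastula (5 hpf), gastrula (9 hpf), elongation (13 hpf), early larva (18 hpf) and mature larva (27 hpf). The labels give no strain, genotype or drug for these stages, and the groups differ by age. Nothing in the labels says whether both libraries of a stage came from separate parents or cultures, and p-values then measure only the spread between these samples, which may be technical. Values are the authors' normalised read estimates, without a correction for gene length, so levels are compared between stages of a gene and not between genes as numbers of molecules. In whole embryos, fewer cells of a type and less RNA per cell cannot be told apart.

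In early animal embryos the transcripts of the egg are replaced by transcripts made from the embryo's own genome, and many developmental regulators are first transcribed around gastrulation. Genes that are on only for a window of development often act while a structure is being laid down, as transcription factors, secreted signals or enzymes that build surface coats and cuticle do, and are turned down once it is formed. Elongation in this species lies between the closing of gastrulation and the swimming larva, when the body axis lengthens and organ rudiments form.

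Estimated depth was 22.4 to 37.1 M reads (M for mega) per library, and 1 read was worth 0.959 to 1.61 units. The early limit of 20 units is thus a low number of reads and not an absence of reads. As a check of the stage labels, *twist*, a mesodermal transcription factor gene, had a stage mean of 88.9 at the gastrula and 1005 at elongation. *foxH*, which acts at gastrulation in vertebrates, had 2069 at the gastrula and 721 at elongation. The homeobox gene *rhox* went from 698 to 170.2 and *cdx*, a hindgut gene, from 1805 to 1983. The total value per library was 31696500 to 39433100 units.

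Together the 150 genes went from almost nothing to a peak and then came down again without returning to zero. Their summed value was between 486 and 972 as a stage mean up to the coeloblastula. It was 77989 ± 16222 (SD, n = 2) at the gastrula, 187670 ± 24746 (SD, n = 2) at elongation, 131974 ± 6833 (SD, n = 2) in the early larva and 78993 ± 3063 (SD, n = 2) in the mature larva. At the peak they made up 0.537% and 0.604% of the total value of the 2 libraries. In the 16 libraries up to the coeloblastula, between 24 and 83 of the 150 genes were listed at exactly 0, and the highest value of any of them in any single early library was 38.6.

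**Figure D1:**
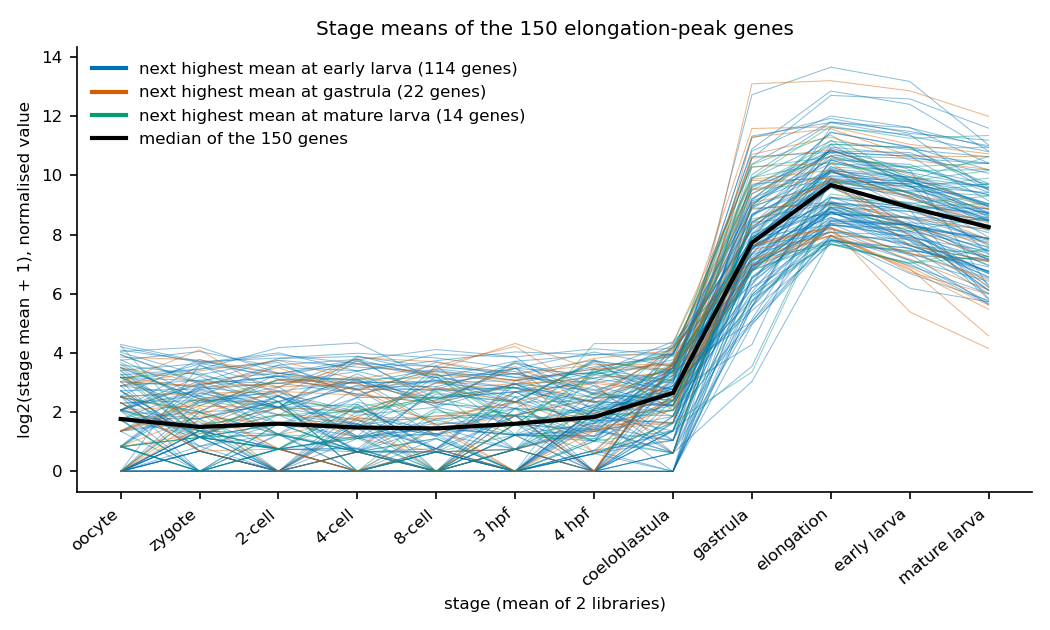
Stage means of the 150 elongation-peak genes on the log2(value + 1) scale (vertical axis) over the 12 stages (horizontal axis), 1 line per gene, coloured by the stage with the next highest mean, with the median over genes in black. The lines lie low up to the coeloblastula, rise at the gastrula, peak at elongation and fall less steeply than they rose. The rule held the means up to the coeloblastula under 20 and set no such limit on the larval side. Stages are spaced evenly and not by time, so slopes are not rates. Of the lines, 114 have the early larva as the next highest stage.

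The peaks were broad rather than sharp. The median ratio of the elongation mean to the next highest mean plus 1 was 1.33 (range 1.03 to 3.45), and 21 genes reached a ratio of 2, 53 a ratio of 1.5 and 123 a ratio of 1.1. The next highest mean was that of the early larva for 114 genes, the gastrula for 22 and the mature larva for 14. As a percentage of the elongation mean, the median gene stood at 30.8% in the gastrula (range 1.80% to 96.3%), 70.0% in the early larva (13.4% to 96.7%) and 39.5% in the mature larva (3.85% to 94.0%). Transcripts of most members were thus already present at 9 hpf: 146 of the 150 had a gastrula mean of at least 20, 37 had at least 50% of their elongation mean there, and 14 had under 10%.

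Of the 150 genes, 18 had a BlastX hit, that is, a translated match to a named protein of another animal. Such hits were available only for genes listed in the tables of the study's drug experiments, 581 of the 26966 genes, so 12.0% of the members and 2.15% of all genes carry one and the other 132 members are given by identifier. The 18 fell into 5 transcription factors, 3 signalling proteins, 7 enzymes that add sugars or sulphate to glycans, and 3 others. Names are those of the hit, in the form of its database entry, and say which known protein is most similar and not that the gene is its ortholog.

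Among the transcription factors, the sharpest peak was that of OFUSG04900 (SCRT1_MOUSE), whose hit Scratch 1 is a zinc-finger repressor of the Snail superfamily expressed in developing neurons of vertebrates. It had 626 and 554 in the gastrula libraries, 2409 and 1808 at elongation, 625 and 950.4 in the early larva and 426 and 564 in the mature larva. Both elongation libraries lay above every other library, and the ratio of 2.67 was the fifth of the 150. OFUSG09074 (BSH_HUMAN), matching a brain-specific homeobox protein, had 773 and 547 in the gastrula libraries, 2187 and 1286 at elongation, 953 and 896 in the early larva and 453 and 386 in the mature larva. Its level also had no overlap between elongation and any other stage, and the mature larva mean was 24.2% of the peak.

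The hits of 2 further transcription factors are known from the gut muscle layer: FOXF1, a forkhead factor of the visceral mesoderm in vertebrates, and NKX3.2, the counterpart of the fly gene *bagpipe*, which acts in visceral mesoderm of *Drosophila*. OFUSG05775 (NKX32_MOUSE) had 13.1 and 8.35 in the gastrula libraries, 736 and 344 at elongation, 446 and 305 in the early larva and 320.2 and 323 in the mature larva. It was thus almost undetected at 9 hpf, with 1.98% of its elongation mean, and its early larva libraries overlapped with those at elongation, where the replicates differed 2.14-fold, while both mature larva libraries lay below them. OFUSG04768 (FOXF1_HUMAN) had 61.7 and 68.9 in the gastrula libraries, 556 and 639 at elongation, 369 and 596 in the early larva and 445 and 495 in the mature larva. Here too the gastrula libraries were the low ones, at 10.9% of the peak, and the early larva overlapped with elongation, while both mature larva libraries lay below it. The 2 genes shared the low gastrula level and a mature larva level of 59.6% and 78.7% of the peak.

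OFUSG24119 (TBX3_RAT), whose hit is a T-box repressor used in limb, heart and gland development of vertebrates, had the flattest profile of the annotated members. It had 3227 and 2899 in the gastrula libraries, 3312 and 3048 at elongation, 1639 and 2584 in the early larva and 1615 and 1769 in the mature larva. The gastrula and elongation libraries overlapped, and the ratio of 1.04 was the fourth lowest of the 150, with the gastrula as the next highest stage.

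The signalling proteins were a ligand, a ligand processing factor and a secreted modulator. OFUSG16172 (WNT6_MOUSE), matching a secreted Wnt ligand, had 73.5 and 94.95 in the gastrula libraries, 299 and 359.9 at elongation, 116 and 194 in the early larva and 119 and 165 in the mature larva. Both elongation libraries were above all others and the gastrula and early larva libraries did not overlap with each other either. OFUSG17455 (STAR_DROME) matches Star, which in *Drosophila* carries the EGF receptor ligand Spitz out of the endoplasmic reticulum for cleavage. It had 713 and 357 in the gastrula libraries, 1653 and 1292 at elongation, 814 and 939.6 in the early larva and 443 and 417 in the mature larva. No library of another stage reached the elongation libraries, and the mature larva stood at 29.2% of the peak. OFUSG00525 (SCUB2_DANRE) matches Scube2, a secreted protein that helps release lipid-bearing Hedgehog from cells in zebrafish. It had 45.4 and 22.97 in the gastrula libraries, 751 and 466 at elongation, 432 and 533 in the early larva and 372 and 488 in the mature larva. The gastrula libraries were low, at 5.62% of the elongation mean, the early larva and mature larva libraries overlapped with the lower of the elongation libraries, and replicate 2 was higher in the early larva than at elongation.

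**Figure D2:**
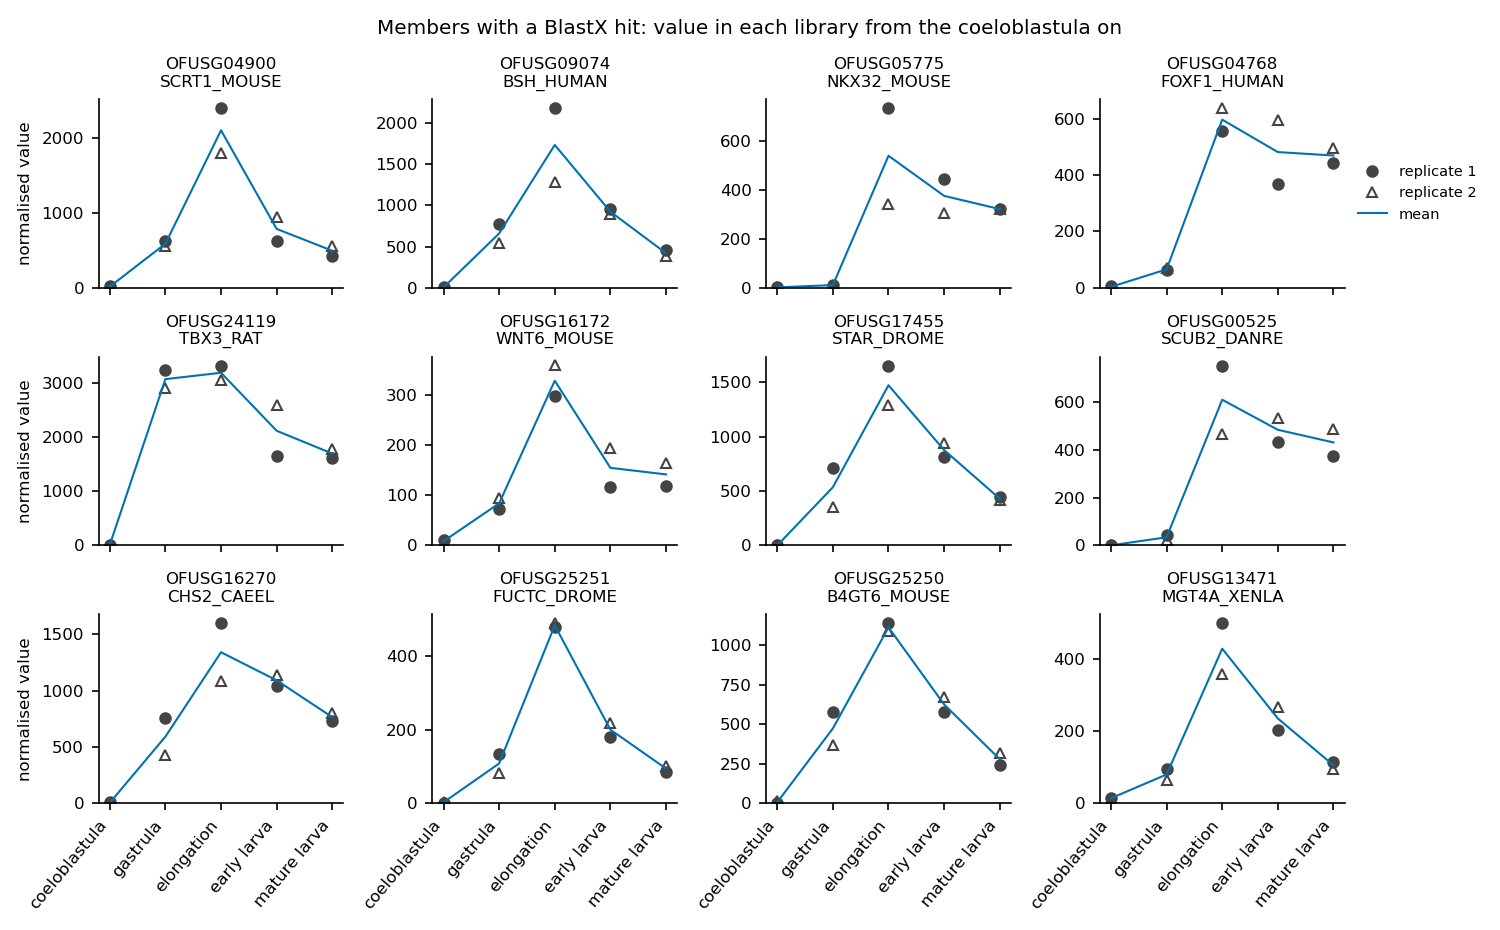
Normalised value (vertical axis, starting at 0) of 12 members with a BlastX hit in the 2 libraries of each stage from the coeloblastula to the mature larva, filled circles for replicate 1, open triangles for replicate 2 and a line through the means. OFUSG05775 stands near zero at the gastrula, and OFUSG00525 and OFUSG04768 are low there relative to elongation. OFUSG24119 is about as high at the gastrula as at elongation. The fucosyltransferase-like gene OFUSG25251 has the 2 elongation libraries close together at 479 and 490.1.

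Enzymes that build glycans were the most frequent kind of annotated member. These enzymes sit in the Golgi and add fucose, galactose, N-acetylglucosamine or sulphate to glycoproteins and glycolipids, which end up on cell surfaces and in secreted matrix and mucus. The list of such hits was drawn up after the members had been seen, so its counts are a description. Of the 20 genes with such a hit among all annotated genes, 12 had their highest stage mean at elongation, 4 in the mature larva, 2 in the early larva, 1 at the gastrula and 1 before it. Of the 12, 7 were members and the other 5 had means of 20 or more before the gastrula. Of all 26966 genes, annotated or not, 3018 had their highest mean at elongation. This is not a like background, since hits exist only for genes of the drug experiments, whose share with a peak at elongation was not counted. The 581 annotated genes also held 78 transcription factors, 5 of them members, and 47 signalling proteins, 3 of them members. They held 95 matrix, adhesion or extracellular protease genes, 1 of them a member. A further 49 neural, 39 muscle or cytoskeleton and 26 secretory pathway genes were without a member among them.

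In all 7 glycan enzymes, both elongation libraries were above the other 22 libraries, which held for 79 of the 150 members (52.7%) and for 2.08% of all genes tested, a difference the choice of members itself brings about. Their ratios were 1.35 to 2.41, their gastrula means 18.6% to 54.6% of the peak and their mature larva means 19.5% to 40.4%, and the early larva was the next highest stage in each. OFUSG25251 (FUCTC_DROME), matching a fly alpha-1,3-fucosyltransferase, had 134 and 82.4 in the gastrula libraries, 479 and 490.1 at elongation, 181 and 219.6 in the early larva and 86.1 and 103 in the mature larva. A second gene with the same hit, OFUSG03941, had 215 and 74.1 in the gastrula libraries, 498 and 364 at elongation, 213 and 228 in the early larva and 73.6 and 112 in the mature larva. The third fucosyltransferase match, OFUSG04120 (FUT2_BOVIN, an alpha-1,2-fucosyltransferase), had 214 and 235 at elongation, 146 and 99.2 at the gastrula and 122 and 209 in the early larva. In each of these 3 fucosyltransferase-like genes the 2 elongation libraries were the highest of 24.

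OFUSG25250 (B4GT6_MOUSE), matching a beta-1,4-galactosyltransferase that makes lactosylceramide, had 579 and 368 in the gastrula libraries, 1140.2 and 1089 at elongation, 580.0 and 672 in the early larva and 240.2 and 317 in the mature larva. OFUSG22303 (CHST5_MOUSE), matching a carbohydrate sulfotransferase, had 113 and 75.2 in the gastrula libraries, 386 and 377 at elongation, 140.0 and 221 in the early larva and 126 and 111 in the mature larva, and was at 0 in most libraries before the gastrula. OFUSG13471 (MGT4A_XENLA) matches an N-acetylglucosaminyltransferase that branches N-glycans. It had 95.6 and 63.6 in the gastrula libraries, 499 and 358 at elongation, 203 and 267 in the early larva and 114 and 96.05 in the mature larva. OFUSG07567 (B3G5A_XENLA), matching a beta-1,3-galactosyl or N-acetylglucosaminyltransferase family member, had 274 and 303 at elongation and 135 and 258 in the early larva, where replicate 2 came close to the elongation libraries. In none of these 4 did a library of another stage reach the elongation libraries.

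The other annotated members matched a chitin synthase, a secreted protein and a Mab-21 family protein. OFUSG16270 (CHS2_CAEEL) matches a chitin synthase of *Caenorhabditis elegans*, which makes the chitin of its pharyngeal cuticle. It had 759 and 424 in the gastrula libraries, 1599 and 1085 at elongation, 1042 and 1141 in the early larva and 726 and 803 in the mature larva, so that elongation and the early larva overlapped. OFUSG20720 (CRVP_LATSE) matches a cysteine-rich secretory protein of a snake, a member of the CAP superfamily, and had 278 and 148 in the gastrula libraries, 1429 and 938 at elongation, 818 and 771 in the early larva and 728 and 634 in the mature larva. Its elongation libraries were above all others. OFUSG02255 (MB212_XENTR) matches a Mab-21 family protein, a family with roles in sensory organ and eye development, and had 3396 and 1626 in the gastrula libraries, 3679 and 2410.0 at elongation, 1507 and 1711 in the early larva and 1585 and 1576 in the mature larva. For this gene the gastrula libraries differed from each other by more than the gastrula and elongation means did.

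The highest ratio of all, 3.45, belonged to OFUSG18494, with 64.1 and 54.3 in the gastrula libraries, 165 and 337 at elongation, 87.4 and 56.03 in the early larva and 61.7 and 42.2 in the mature larva. Its elongation libraries differed 2.03-fold, and the peak was less sharp in replicate 1 than in replicate 2. Up to 3 hpf its values were 0 in each replicate 1 library and 6.11 to 23.2 in the replicate 2 libraries. OFUSG17003, the next, had 20.2 and 16.7 in the gastrula libraries, 910.4 and 984 at elongation, 232 and 382 in the early larva and 243 and 224 in the mature larva. Here the gastrula libraries were near the early limit and the elongation libraries stood well clear of every other library.

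Of the other genes with the 10 highest ratios, OFUSG25532 (ratio 3.07) had 1094 and 819 at elongation against 438 and 183 at the gastrula and 288 and 311 in the early larva. OFUSG04763 (ratio 2.68) had 504 and 183 in the gastrula libraries, 1058 and 786 at elongation, 178 and 215 in the early larva and 169 and 106 in the mature larva. OFUSG04771 (ratio 2.55) had 473 and 123 in the gastrula libraries, 1499 and 815 at elongation, 458 and 447 in the early larva and 66.9 and 45.9 in the mature larva. These 3 genes were without overlap between elongation and any other stage, and OFUSG04771 had the lowest mature larva mean of the 3 relative to its peak, 4.87%.

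OFUSG14966 (ratio 2.43) had 2490.0 and 2176 at elongation against 975 and 945 in the mature larva, its next highest stage, and 795 and 741 in the early larva. OFUSG23617 (ratio 2.42) had 44.5 and 232 in the gastrula libraries, 305 and 761 at elongation, 76.3 and 362 in the early larva and 24.7 and 111 in the mature larva, with replicate 2 the higher in each stage, so that replicate 2 of the early larva lay above replicate 1 of elongation. OFUSG25530 (ratio 2.40) had 1787 and 1419 at elongation and 665 and 669.9 at the gastrula. Of the 10 genes, OFUSG04900 and OFUSG25251 have been described above.

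The 5 members with the highest values at elongation were none of the 10 with the sharpest peaks; since values are not corrected for gene length, they need not be the most abundant. OFUSG09002 had 6169 and 7323 in the gastrula libraries, 12481 and 13237 at elongation, 7020.4 and 11404 in the early larva and 1764 and 2408 in the mature larva, and replicate 2 of the early larva was just below the elongation libraries. OFUSG26274 had 12341 and 5098 in the gastrula libraries, 10954 and 7816 at elongation, 7885 and 6913 in the early larva and 3621 and 4521 in the mature larva, with the highest of all 24 values in replicate 1 of the gastrula. OFUSG00478 had 2361 and 1427 in the gastrula libraries, 9055 and 5678 at elongation, 5936 and 4842 in the early larva and 2011 and 1606 in the mature larva, OFUSG21271 had 7661 and 5630.4 at elongation and 5837 and 6401 in the early larva, and OFUSG20621 had 4564 and 3652 at elongation and 2645 and 3636 in the early larva. None of these 5 genes carries a BlastX hit, and in 3 of them, OFUSG26274, OFUSG00478 and OFUSG21271, the elongation libraries overlapped with those of the next highest stage.

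Whether the transcripts were more abundant before or after the peak was then compared. The rule used the means of both stages, which had to be below that of elongation and entered the ratio, and it held the stage just before the gastrula under 20 with no such limit on the larval side. The values are therefore a description, and the shares over all genes are those of genes not chosen in this way. On the log2(value + 1) scale the median difference, early larva minus gastrula, was 1.07 over the members (quartiles 0.29 and 1.82) and 0.03 over all 23934 genes tested, and 125 of the 150 members had a positive difference. Both early larva libraries lay above both gastrula libraries in 93 members (62.0%, against 32.3% of all genes tested) and below them in 9 (6%, against 27.5%). In limma, with Benjamini-Hochberg adjustment over all genes tested, 23 members (15.3%) were called higher in the early larva, against 13.6% of all genes, a share near the background. None was called lower, against 9.73% of all genes. At an unadjusted p under 0.05, 1 member was lower, and limma without the trend called none lower either. This fit takes 1 estimate of spread per gene from all 24 libraries, 16 of them early ones where the rule held the members low. Shares of members called and of all genes are thus not like for like. With only the libraries of the 2 stages, 47 members were called higher and 3 lower. The count of members called higher was 5 with a pseudocount of 0.1 and 72 with a pseudocount of 10, and it fell to 13 without replicate 1 of the early larva and to 13 without replicate 2 of the gastrula.

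Among the genes with the lowest gastrula levels, 4 had a gastrula mean under 20: OFUSG05775, OFUSG17003, OFUSG06970 and OFUSG07089, the last 2 named for this level after their values were seen. OFUSG06970 had 5.90 and 12.5 in the gastrula libraries, 597 and 424 at elongation, 291 and 261 in the early larva and 409 and 365 in the mature larva. OFUSG07089 had 7.10 and 7.30 in the gastrula libraries, 265 and 185 at elongation, 146 and 223 in the early larva and 58.7 and 157 in the mature larva. In both, the gastrula libraries were the low ones and the early larva libraries lay far above them. On the log2(value + 1) scale, early larva minus gastrula was 5.01 ± 0.63 (SE) for OFUSG05775 (NKX32_MOUSE) and 3.95 ± 0.90 (SE) for OFUSG17003. It was 3.85 ± 0.84 (SE) for OFUSG00525 (SCUB2_DANRE) and 2.83 ± 1.06 (SE) for OFUSG04768 (FOXF1_HUMAN). These differences are a description, since the means of both stages entered the choice of the genes. Nothing is read from calls on them.

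Most members had a lower mean in the mature than in the early larva. The means of these stages entered the rule too, so this is likewise a description. The median difference, mature minus early larva, was -0.82 (quartiles -1.15 and -0.39) over the members and 0.00 over all genes tested, with 136 of the 150 members negative. Both mature larva libraries lay below both early larva libraries in 104 members (69.3%, against 24% of all genes tested) and above them in 6 (4%, against 25.4%). With limma, 1 member was called lower (0.667%, against 1.83% of all genes) and none higher (against 1.88%). At an unadjusted p under 0.05, 11 members were lower and none was higher. The single call, OFUSG03503, had 276 and 281 in the gastrula libraries, 2226 and 1646 at elongation, 1101 and 1246 in the early larva and 56.00 and 93.05 in the mature larva. Its difference was -4.00 ± 1.06 (SE). It was called in 3 of the 11 other settings, and not without replicate 1 or replicate 2 of either larval stage. No member was called lower without replicate 1 or replicate 2 of the early larva or without replicate 1 of the mature larva.

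For the contrasts that the rule fixes, limma called 25 members higher at elongation than at the gastrula (16.7%, against 4.19% of all genes tested) and 139 higher at the gastrula than in the coeloblastula (92.7%, against 18%). It called no member lower at elongation than at the gastrula (against 2.13% of all genes), none higher in the early larva than at elongation (against 1.56%) and none lower (against 1.08%), with 4 of the last kind at an unadjusted p under 0.05 and none by limma without the trend. Both elongation libraries lay above both gastrula libraries in 127 members (26.3% of all genes tested), above both early larva libraries in 91 (22.1%) and above both mature larva libraries in 138 (32.4%). These counts follow from the choice of members and nothing is read from them.

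The levels before and after the peak came in several combinations. Of the 14 members with under 10% of the peak at the gastrula, 5 still had at least 50% in the mature larva. These 5 are OFUSG05775 (NKX32_MOUSE), OFUSG00525 (SCUB2_DANRE), OFUSG00524, OFUSG06970 and OFUSG22696, the last 3 named after their values were seen. OFUSG00524 had 192 and 73.01 in the gastrula libraries, 2529 and 1436 at elongation, 1661 and 1657 in the early larva and 1278 and 1439.6 in the mature larva, and the early larva libraries lay above the lower of the elongation libraries. At the opposite corner, 3 members had at least 50% of the peak at the gastrula and under 10% in the mature larva: OFUSG21465, OFUSG26562 and OFUSG22322. OFUSG21465 had 225 and 171 in the gastrula libraries, 336 and 273 at elongation, 50.8 and 30.9 in the early larva and 8.60 and 24.95 in the mature larva, with a difference, early larva minus gastrula, of -2.28 ± 0.93 (SE) on the log2 scale. Its gastrula and elongation libraries did not overlap, and none of its larval libraries was above 50.8.

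Among all members, the lowest mature larva levels relative to the peak were those of OFUSG03503 (3.85%), OFUSG04771 (4.87%) and OFUSG21465 (5.51%). In OFUSG04771 the difference from the early to the mature larva was -3.01 ± 0.95 (SE). The highest were those of OFUSG11487 (94.04%), OFUSG23576 (93.9%) and OFUSG25585 (93.6%). OFUSG11487 had 334 and 145 in the gastrula libraries, 1300.1 and 1182 at elongation, 1026 and 1261 in the early larva and 1335 and 999.6 in the mature larva, and replicate 1 of the mature larva was its highest library. OFUSG23576 had 895 and 556 at the gastrula, 1025 and 755 at elongation and 886 and 786 in the mature larva, so that all 3 stages overlapped. In OFUSG11487 and OFUSG23576 the elongation mean exceeded the next highest mean by less than the elongation libraries differed from each other.

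**Figure D3:**
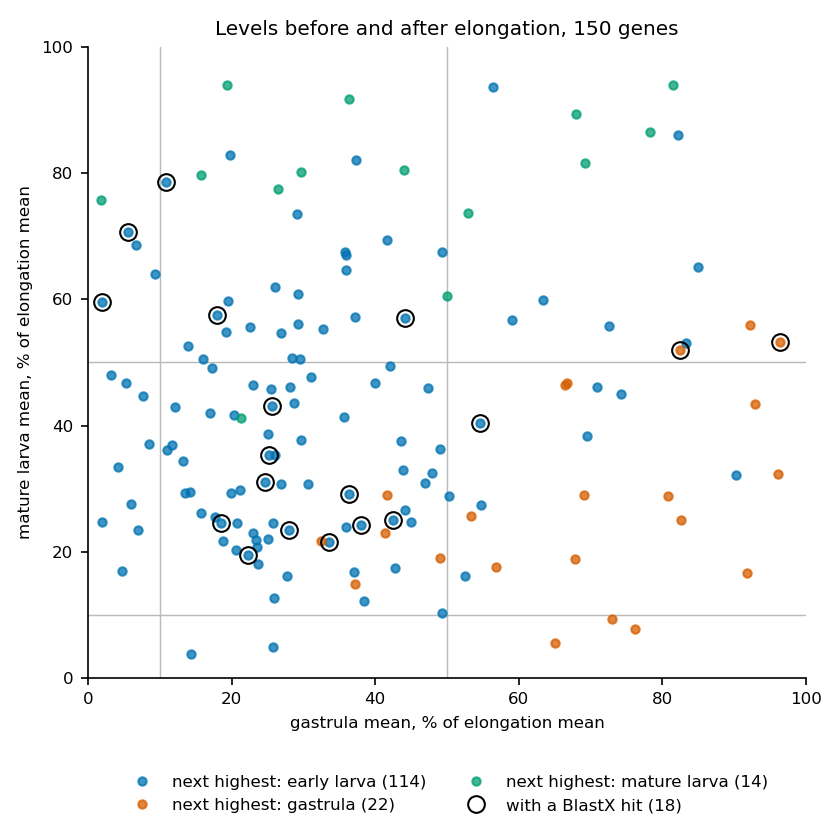
Gastrula mean (horizontal axis) against mature larva mean (vertical axis), each as a percentage of the elongation mean, for the 150 genes, coloured by the stage with the next highest mean, with rings around the 18 genes with a BlastX hit and grey lines at 10% and 50%. Genes with a low gastrula level lie from the bottom to the top of the plot, 5 of them under 10% at the gastrula and at or above 50% in the mature larva, and 3 genes lie in the opposite corner.

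The stage of the highest value was not the same in both replicates for every member. The highest value within replicate 1 was that of elongation in 137 members, within replicate 2 in 119, and in both in 107. Replicate 1 was the higher elongation library in 106 of the 150 members, against 48.7% of all genes tested. The 2 elongation libraries differed over 2-fold in 14 members (9.33%), against 4.25% of the 12369 genes with an elongation mean of at least 200. The largest difference was that of OFUSG07645, with 11.8 and 913 in the gastrula libraries, 17.1 and 1071 at elongation, 119 and 812 in the early larva and 84.4 and 625 in the mature larva, a 62.5-fold difference at elongation. Its values were high in replicate 2 and low in replicate 1 at each of the 4 late stages. OFUSG21070 had 395 and 109 at elongation and 167 and 80.3 at the gastrula, and OFUSG02535 had 169.7 and 427 at elongation and 98.6 and 176 in the early larva. In both, the elongation libraries differed by a larger fold than the elongation mean and the next highest mean.

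**Figure D4:**
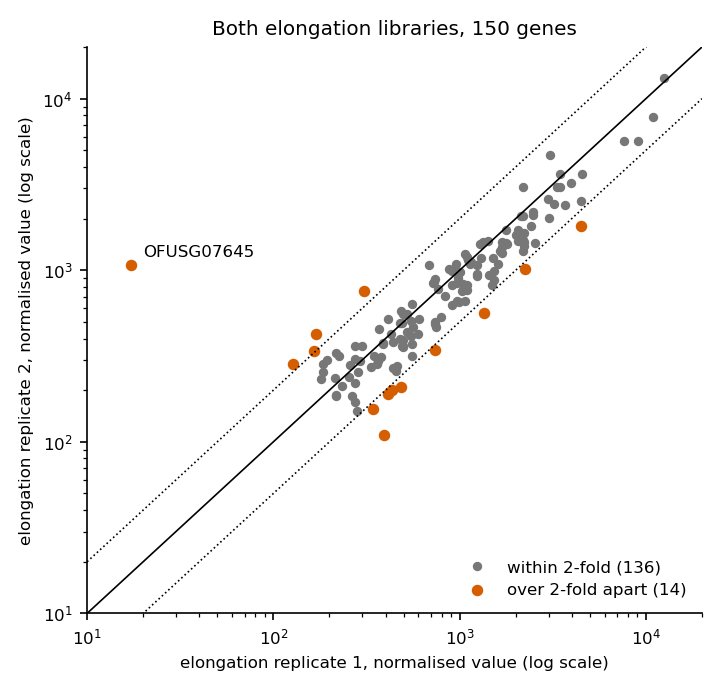
Normalised values of the 150 genes in elongation replicate 1 (horizontal axis) and replicate 2 (vertical axis), both on log scales, with the line of equality and dotted lines at a 2-fold difference. The 136 grey points lie within 2-fold, most of them below the line of equality, 14 orange points lie outside, and OFUSG07645 stands far above the line.

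The rule was also applied to each replicate alone and the genes were read in the other. In replicate 1, 183 genes met the limits, and the top 150 of them shared 110 genes with the members. In replicate 2, 92 of these 150 (61.3%) had their highest value at elongation, against 12.0% of all genes tested, 51 had it in the early larva and 1 at the gastrula. In replicate 2, 162 genes met the limits and the top 150 shared 95 with the members. In replicate 1, 104 of these (69.3%) were highest at elongation, against 9.75% of all genes, 28 at the gastrula and 10 in the early larva. The median ratio was 1.53 where the genes were chosen in replicate 1 and 1.16 where they were read in replicate 2, and 1.37 and 1.28 the other way. Most genes chosen in one library series were thus again highest at 13 hpf in the other, with a smaller median ratio. Most of the rest had their highest value in the early larva in replicate 2 and at the gastrula in replicate 1. The early limit left the chosen genes little room to peak before the gastrula, where 2 of them in replicate 2 and 0 in replicate 1 were highest. The shares over all genes, which can peak at any stage, are therefore not a like background.

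The share of members with several transcript models was close to that of all genes. A single transcript was listed for 131 members and several for 19 (12.7%, against 14.7% of all genes tested), up to 4 per gene. In 11 of the 19, the main transcript at elongation held at least 90% of the gene's value there. The main transcript of the mature larva was another than that of elongation in 4 genes, and the main transcript of the gastrula was another in 3. In OFUSG18494, the gene with the highest ratio, transcript 2 held 68.1% of the value at elongation, 62.1% and 71.1% in the separate libraries, 90.3% at the gastrula and 4.61% in the mature larva. In OFUSG26877, named for its change after its values were seen, transcript 1 held 91.3% at elongation and 13.8% at the gastrula. Such shares come from estimated assignment of reads to overlapping models and carry its uncertainty.

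Some members had consecutive identifiers, 11 of the 150 genes in 6 neighbouring pairs. The members are 0.556% of all genes, and such pairs were not counted for other sets of genes. OFUSG25249, OFUSG25250 (B4GT6_MOUSE) and OFUSG25251 (FUCTC_DROME) formed a run, and OFUSG04119 stood next to OFUSG04120 (FUT2_BOVIN), so 3 of the 7 glycan enzymes were in such pairs. OFUSG25249 had 283 and 255 at elongation and 244 and 42.8 at the gastrula, and OFUSG04119 had 1239 and 925 at elongation and 407 and 202 at the gastrula. OFUSG00524 stood next to OFUSG00525 (SCUB2_DANRE), and both were low at the gastrula, with 6.69% and 5.62% of the peak. The remaining pairs were OFUSG04763 with OFUSG04764 and OFUSG14802 with OFUSG14803. Whether consecutive numbers are neighbours in the genome is not given in the sources used here, and the files do not tell whether the members of a pair share reads.

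At the limit of the set, the values just inside and just outside were much alike. The last 3 genes taken were OFUSG16723 (ratio 1.036), OFUSG25585 (1.033) and OFUSG16362 (1.033), and the first 3 not taken were OFUSG14801 (1.030), OFUSG20731 (1.029) and OFUSG13199 (1.027, DMTA2_DANRE, a DM-domain transcription factor match). OFUSG16362 had 345 and 316 at elongation and 273 and 365 in the early larva, and OFUSG14801 had 738 and 497 at elongation and 573 and 624 in the early larva. Of the 2 genes the rule names as left out, OFUSG18439, matching the BMP antagonist noggin, met the limits with 489 and 794 in the gastrula libraries, 1214 and 1178 at elongation, 441 and 411 in the early larva and 228 and 330.2 in the mature larva and a ratio of 1.86. OFUSG11740, matching the homeobox gene goosecoid, had its highest mean at elongation, 2834 and 3271 against 3068 and 2643 in the mature larva, and did not meet the early limit.

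The same limits applied to the other late stages gave 68 genes with their highest mean at the gastrula, 317 in the early larva and 972 in the mature larva, against 159 at elongation. The median ratio to the next highest mean plus 1 was 1.82 for the gastrula, 1.30 for elongation, 1.24 for the early larva and 1.98 for the mature larva. A ratio of 2 was reached by 42.6% of the gastrula genes, 13.2% of the elongation genes, 5.36% of the early larva genes and 49.3% of the mature larva genes. The elongation genes thus had lower ratios than the gastrula and mature larva genes and slightly higher ones than the early larva genes. These ratios are not like for like. The early limit held all stages before the gastrula low, so only later stages could come close to a gastrula peak. The mature larva, as the last stage, has no later stage to be compared with. Elongation and early larva genes had stages without such a limit on both sides of the peak. No test of the differences in ratio was made, since the genes were chosen on the same values.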

How the data were processed

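The authors deposited RNA-seq signal, normalised, for each transcript in each library, with kallisto 0.46.2 and DESeq2 1.30.1 named in the submitters' processing notes. The values are estimated reads scaled between libraries, and the genome annotation is not given in the sources used here for these libraries. Among low values, 62.9% to 99.9% per library were whole reads within 0.1, too few in some libraries for a count test. In the table, 3 value columns match no sample label and were not used, nor were the coeloblastula ATAC-seq peaks, which have no gene. The columns for 3 and 4 hpf carry cell numbers: the second was matched by the study's text and the first by elimination.

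Transcripts were summed to 26966 genes with Python 3.11.15 and pandas 2.3.3. The 23934 genes with at least 10 units in at least 2 libraries entered 1 linear model over all 24 libraries (limma 3.58.1, R 4.3.3) on the scale of log2(value + 1), with a variance trend and stage as factor. All 150 members passed this filter. Genes were called at 0.05 after Benjamini-Hochberg adjustment over every gene in the fit, and stages were said not to overlap where the lower library of one exceeded the higher library of the other. Alternatives were other pseudocounts, no filter, a trimmed mean of M-values (TMM) rescaling, no trend, only the compared stages, a replicate block and leaving out each library.

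The members and lists were chosen with earlier results of these data known. Genes named are the 18 members with a BlastX hit, the 10 highest ratios, the 5 highest elongation means, the 3 lowest ratios and 3 genes beyond, the 3 highest and 3 lowest mature larva shares, the 3 largest replicate differences and the 2 genes left out; others are said to be chosen after their values were seen.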

Additional observations from a re-analysis of the deposited data

How the results depend on the processing

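Of 55 recomputed counts whose reported value was above 0, 34 stayed within 1.5 times of it and 21 did not. Of 66 whose reported value was 0, 5 rose above 0, and the rule itself precludes several of these directions. With a pseudocount of 0.1, 4 members were called higher at elongation than at the gastrula, 5 higher in the early larva than at the gastrula and 0 lower in the mature than in the early larva. With a pseudocount of 10 these counts were 89, 72 and 21, with 15 members called lower in the early larva than at elongation and 2 lower in the early larva than at the gastrula. With only the libraries of the 2 stages compared, 56 were called higher at elongation than at the gastrula, 47 higher and 3 lower in the early larva than at the gastrula, and 7 lower in the early larva than at elongation. For the mature against the early larva, the number called lower was 0 without the filter, 0 after TMM rescaling and 3 without the trend. Leaving out each library in turn gave 6 to 18 members higher at elongation than at the gastrula (6 and 15 without replicate 1 and 2 of elongation, 10 without replicate 2 of the gastrula), 13 to 20 higher in the early larva than at the gastrula and 0 to 1 lower in the mature larva. The reported fit takes 1 estimate of spread per gene from all 24 libraries, including 16 early ones where the rule held the members low. Shares of members called and of all genes are thus not like for like in any of the comparisons. The cause of these shifts was not tested.

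TMM rescaling moved the median of all genes by under 0.1 (log2) in the comparisons from the gastrula on, and from 0.40 to 0.12 for the gastrula against the coeloblastula. The number of genes that meet the limits was 159 (after leaving out noggin). It was 93 with an early limit of 10 and 278 with one of 50, each keeping 88 of the 150 members, and 116 to 226 in the other settings, which kept 95 to 133. Among the stages other than elongation, the early larva was the highest for 94 to 123 members in the other settings. Elongation itself was the highest stage in 137 members with replicate 1 alone and in 119 with replicate 2 alone. None of 77 recomputed differences of single genes changed sign. They cover only OFUSG00525, OFUSG04768, OFUSG05775, OFUSG17003, OFUSG21465, OFUSG03503 and OFUSG04771, in 11 settings each. The smallest reported difference among these genes was -2.28, so a change of sign had little room to occur. Other members were not covered. Calls did change: OFUSG17003 and OFUSG00525 were no longer called higher in the early larva with a pseudocount of 0.1.

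Deviations of same-numbered libraries correlated positively, at 0.0392 to 0.692 over 66 pairs of stages, above 0.1 in 57 (0.259 to 0.471 over the 6 pairs from the gastrula on). Same-numbered libraries thus tended to deviate together. The labels name no shared culture, and the reported fit does not pair the samples. With the replicate block, 36 members were called higher at elongation than at the gastrula, 33 higher in the early larva than at the gastrula, 1 lower in the early larva than at elongation and 1 lower in the mature than in the early larva. Over all genes tested, 1636 were called higher at elongation than at the gastrula with the block, against 1004 in the reported fit. OFUSG04768, not called higher in the early larva than at the gastrula in the reported fit, was called with the block. Nothing is read from this call, since the means of both stages entered the choice of the gene.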
